A study of Mus musculus with 4 samples.

Results

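The regions described here are stretches of chromatin called higher in acetylated histone H3 lysine 9 (H3K9ac) in choline-supplemented cells, at the starts of noncoding genes. A region was taken when it was assigned to the supplemented level, overlapped the 1000 bp on either side of an annotated transcript start of a noncoding gene, and overlapped no such window of a protein-coding gene. The noncoding genes were those of 6 GENCODE types, namely lincRNA, antisense, processed_transcript, bidirectional_promoter_lncRNA, sense_intronic and sense_overlapping. The rule took 823 regions of the 45495 assigned to supplemented choline, out of 45855 in the whole list. A further 1171 regions at noncoding starts also touched a protein-coding start and were left out, so that the regions kept are those that no annotated coding start lies close to. Gene types are those of the annotation. Some genes that it types as noncoding, such as Zswim6, Ifi30 and Muc19, bear names of protein-coding genes and are counted here as noncoding.

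The cells were HT22 (spelled TH22 in one label), an immortalised mouse hippocampal neuronal line, so every value comes from 1 clonal line in culture. They were kept for 48 h in 70 µM choline chloride (SUP, supplemented) or 5 µM choline chloride (CON, control), in high-glucose medium with fetal bovine serum and antibiotics at both levels. The series has 4 libraries, 2 of H3K9ac ChIP DNA and 2 of input DNA, and the labels do not give the choline level of each, so at most 1 ChIP library stood for a level. The list numbers its conditions without naming them; following the comparison name carried by each region, the second was taken to be 70 µM and the first 5 µM. No value per library was analysed here, the read depth is unknown, and culture-to-culture variation was not measured; no p-value is given. Regions that both levels shared are not in the list, so a gene without a region may carry H3K9ac at both levels alike. Of the defining markers of the labelled cell type, 2 of 10 neuronal genes had a 70 µM region at a start, beside 39.2% of 21938 protein-coding genes. So did 2 of 4 astrocyte, 1 of 4 oligodendrocyte, 1 of 4 microglial and 4 of 4 fibroblast genes. These counts are small, and a list of differences does not show which of the genes are expressed.

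Long noncoding RNAs are transcribed by RNA polymerase II, often spliced and polyadenylated, and many start close to, and opposite from, a protein-coding gene. Their active promoters carry the same acetylation marks as coding promoters, H3K9ac among them, which is laid down by the acetyltransferases Gcn5 and PCAF and removed by histone deacetylases. Among the best studied are the architectural RNAs of nuclear bodies, the host transcripts of small nucleolar RNAs (snoRNAs) and microRNAs, and RNAs induced by p53.

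The sequences below are those of single regions, from the plus strand of mm10, 5′ to 3′, with CpG sites in capitals. The first set shows the highest-scoring region of at most 300 bp in groups of known noncoding genes, so that the sequence at these starts can be read. They range from a CpG-dense stretch in the HoxA cluster (Hoxaas3, 19 CpG sites) to a stretch with 1 CpG site (Trp53cor1). The sequence at Trp53cor1 holds 1 match to the AP-1 motif TGANTCA. The region printed for Neat1 also lies at a start of Frmd8os.
Trp53cor1 (chr17:29072353-29072553): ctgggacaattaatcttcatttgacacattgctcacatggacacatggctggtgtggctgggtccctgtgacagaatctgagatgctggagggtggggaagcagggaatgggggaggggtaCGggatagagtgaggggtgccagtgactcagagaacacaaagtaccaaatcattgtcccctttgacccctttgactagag
C130071C03Rik (chr13:83732522-83732752): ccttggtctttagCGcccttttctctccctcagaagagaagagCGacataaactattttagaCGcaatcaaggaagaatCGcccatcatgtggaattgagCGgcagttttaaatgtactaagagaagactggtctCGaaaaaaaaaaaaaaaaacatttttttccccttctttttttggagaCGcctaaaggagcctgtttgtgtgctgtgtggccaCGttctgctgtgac
Neat1 (chr19:5846307-5846507): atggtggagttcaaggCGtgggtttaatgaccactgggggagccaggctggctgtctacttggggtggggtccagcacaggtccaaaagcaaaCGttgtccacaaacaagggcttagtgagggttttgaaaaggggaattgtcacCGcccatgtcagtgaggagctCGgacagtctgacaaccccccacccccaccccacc
Hoxaas3 (chr6:52176004-52176276): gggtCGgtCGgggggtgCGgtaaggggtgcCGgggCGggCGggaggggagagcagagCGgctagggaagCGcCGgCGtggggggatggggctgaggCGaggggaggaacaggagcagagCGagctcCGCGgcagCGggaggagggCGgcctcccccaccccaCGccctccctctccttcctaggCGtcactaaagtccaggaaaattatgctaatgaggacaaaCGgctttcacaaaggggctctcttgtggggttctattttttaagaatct
Dnm3os (chr1:162219003-162219156): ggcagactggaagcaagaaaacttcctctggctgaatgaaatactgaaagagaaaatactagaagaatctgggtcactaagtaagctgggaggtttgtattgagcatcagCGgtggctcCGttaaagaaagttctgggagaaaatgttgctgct

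The second set shows the regions with the highest scores, 1 or 2 for each way the genes are named. They hold between 3 and 6 CpG sites each.
Gm49484 (chr15:99464141-99464340): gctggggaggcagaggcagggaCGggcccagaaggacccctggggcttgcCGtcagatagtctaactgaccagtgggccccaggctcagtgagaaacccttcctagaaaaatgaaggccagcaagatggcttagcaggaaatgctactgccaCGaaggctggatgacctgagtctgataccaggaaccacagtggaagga
9530082P21Rik (chr17:23743643-23743856): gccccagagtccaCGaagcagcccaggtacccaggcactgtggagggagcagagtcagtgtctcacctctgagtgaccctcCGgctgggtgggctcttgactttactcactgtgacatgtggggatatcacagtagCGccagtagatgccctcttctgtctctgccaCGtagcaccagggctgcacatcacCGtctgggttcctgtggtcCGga
Irx3os (chr8:91803144-91803411): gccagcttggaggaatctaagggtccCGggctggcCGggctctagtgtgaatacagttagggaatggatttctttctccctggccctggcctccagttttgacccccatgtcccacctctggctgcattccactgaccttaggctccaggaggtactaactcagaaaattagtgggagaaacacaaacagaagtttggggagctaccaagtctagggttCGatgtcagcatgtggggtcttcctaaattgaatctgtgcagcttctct
Dhx58os (chr11:100687446-100687597): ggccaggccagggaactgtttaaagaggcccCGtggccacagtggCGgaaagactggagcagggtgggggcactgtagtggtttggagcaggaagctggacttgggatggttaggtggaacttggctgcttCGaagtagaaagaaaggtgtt
AC091309.1 (chr17:83951737-83951886): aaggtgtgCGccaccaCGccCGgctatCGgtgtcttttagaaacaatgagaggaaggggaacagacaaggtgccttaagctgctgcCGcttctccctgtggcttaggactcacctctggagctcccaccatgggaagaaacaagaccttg

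Noncoding genes carried such regions less often than coding genes carried regions of any kind. Of 10150 noncoding genes of the 6 types, 715 (7.04%, exact 95% interval 6.55 to 7.56) had at least 1 of the 823 regions at a start. At least 1 region of the 70 µM level lay at a start in 39.2% of 21938 protein-coding genes (exact 95% interval 38.6 to 39.9). These shares are per gene and were not matched for the number of annotated starts, and more starts give more window to hit. When shared windows were counted too, 1481 noncoding genes had a 70 µM region (14.6%), and for 766 of them it lay only in windows shared with a coding start. Among the 7741 noncoding genes whose windows touched no coding window, 555 carried a region (7.17%, exact 95% interval 6.60 to 7.77). At 5 µM, 16 noncoding genes (0.158%) had a region at a start, shared windows included. These intervals cover counting over genes only.

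The share of genes with a region was highest for processed transcripts and, with shared windows counted, for bidirectional-promoter genes. Genes of the type processed_transcript, spliced transcripts without an open reading frame, carried a region in 86 of 790 cases (10.9%, exact 95% interval 8.80 to 13.3). The 86 include genes with names of protein-coding genes, such as Zswim6, Ifi30 and Muc19. Antisense genes did so in 224 of 2959 cases (7.57%, 6.64 to 8.58) and lincRNA genes, which lie between coding genes, in 378 of 5854 (6.46%, 5.84 to 7.12). Sense-intronic genes had 20 of 327 (6.12%, 3.78 to 9.29) and sense-overlapping genes 1 of 30. Bidirectional-promoter genes, which start head to head with a coding gene, had 6 of 190 (3.16%, 1.17 to 6.75), but 99 of them (52.1%, 44.8 to 59.4) had a 70 µM region once shared windows were counted.

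**Figure D1:**
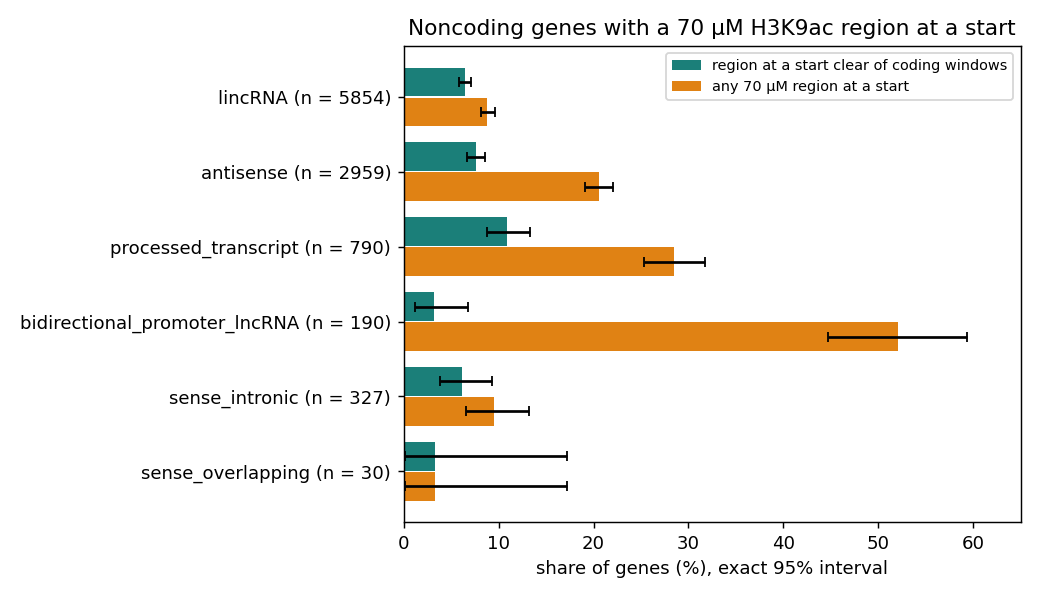
Share of genes of each noncoding type (percent, with exact 95% intervals, n in brackets) with a 70 µM region at a start clear of coding windows (green) and with any 70 µM region at a start (orange). The largest gap between the bars is at bidirectional-promoter genes, with 3.16% against 52.1%.

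Most of the 715 genes carried a single region. There were 609 genes with 1 region, 76 with 2 and 30 with 3 or more, and 39 of the 823 regions served 2 genes. By name, 426 of the genes were predicted Gm genes, 169 Rik clones, 49 clones or accessions and 71 genes with a symbol of their own. These 71 include names of protein-coding genes, such as Zswim6, Ifi30 and Muc19. Genes with a symbol carried a region in 13.8% of 513 cases (exact 95% interval 11.0 to 17.1), against 6.08% of 7007 Gm genes (5.53 to 6.66) and 8.60% of 1966 Rik genes (7.39 to 9.92). Genes with more annotated starts have more window to hit. The share was 5.76% of 7576 genes with 1 start, 9.11% with 2 to 3 starts, 17.8% with 4 to 9 and 29.3% of the 41 genes with 10 or more.

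The number of CpG sites at the start went with the share of genes that carried a region. Among noncoding genes clear of coding windows, the 1 kb around the 5′-most start held 0 to 4 CpG sites in 881 genes, of which 1.82% carried a region (exact 95% interval 1.04 to 2.93). The share was 3.997% of 2352 genes with 5 to 9 sites, 7.41% of 3062 with 10 to 19 and 10.9% of 1149 with 20 to 39. It was 31.3% of 297 genes with 40 or more (exact 95% interval 26.1 to 36.9). Genes with 1 annotated start gave the same order, with 1.42% at 0 to 4 CpG sites and 23.7% at 40 or more (exact 95% interval 17.6 to 30.7).

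**Figure D2:**
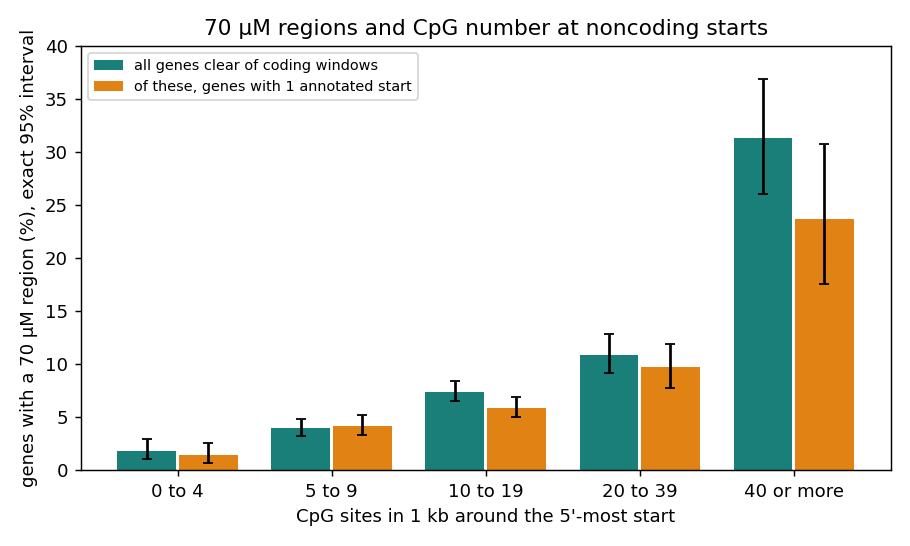
Share of noncoding genes with a 70 µM region (percent, exact 95% intervals) against the number of CpG sites in the 1 kb around the 5′-most start, for all genes clear of coding windows (green) and for those with 1 annotated start (orange). Both sets step up from under 2% in the lowest class to 31.3% and 23.7% in the highest.

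The regions themselves stood between those of coding starts and those away from any start. Their median width was 176 bp (95% interval 172 to 180, range 120 to 1197), against 185 bp (184 to 186) at protein-coding starts and 164 bp (164 to 165) at neither kind of start. Median G and C content was 50.9% (50.4 to 51.7), against 54.7% at coding starts and 48.8% at neither. In the 200 bp around the midpoint the median number of CpG sites was 3, against 6 at coding starts and 2 at neither. At least 8 CpG sites were found there in 15.6% of the 823 regions (exact 95% interval 13.1 to 18.2), in 41.5% of the 13147 regions at coding starts and in 4.19% of the 31525 at neither. Another 70 µM region lay within 1000 bp for 35.2% of them, against 47.8% at coding starts and 16.8% at neither.

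Of 8 sequence motifs searched on both strands in the 200 bp around the midpoint, the GC box GGGCGG, bound by Sp and Krüppel-like factors, differed most between the classes. It was found in 11.7% of the noncoding-start regions (exact 95% interval 9.55 to 14.1), against 21.4% at coding starts, 4.53% at neither and 9.54% of all 70 µM regions. CCAAT was found in 19.3% (16.7 to 22.2), against 18.99% at coding starts, 23.3% at neither and 21.96% of all. The AP-1 motif TGANTCA was in 5.22%, against 3.75% at coding starts, 6.49% at neither and 5.68% of all. TATAAA was in 9.23%, against 5.79% at coding starts, 9.93% at neither and 8.72% of all. The E-box CACGTG was in 4.01% (2.78 to 5.59), against 3.48% at coding starts, 2.67% at neither and 2.93% of all. The cyclic AMP response element TGACGTCA was found in 2 of the 823 windows (0.243%), against 0.207% of all. The palindromes bound by NRF1 and by the glucocorticoid receptor were found in none of the 823 windows, against 0.0615% and 0.00879% of all. A match describes the letters only, and no motif contains another.

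The score that the authors' comparison gave each region, which the list leaves unnamed, also lay between the other classes. Its median in the authors' deposited table was 5.47 (95% interval 5.24 to 5.72) at noncoding starts, against 4.99 at coding starts and 8.86 at neither. A score of 10 or more in the authors' deposited table was held by 212 of the 823 regions (25.8%, exact 95% interval 22.8 to 28.9), against 14.4% at coding starts and 46.2% at neither. One exact value, 19.007, recurred more than any other in the authors' deposited table and was shared by 2552 regions of the whole list and by 23 of the 823 (2.79%), against 1.43% at coding starts and 7.43% at neither. Within the 823 regions, score and CpG number had a Spearman correlation of -0.133 (n = 823 regions, which share the same libraries), a weak relation.

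**Figure D3:**
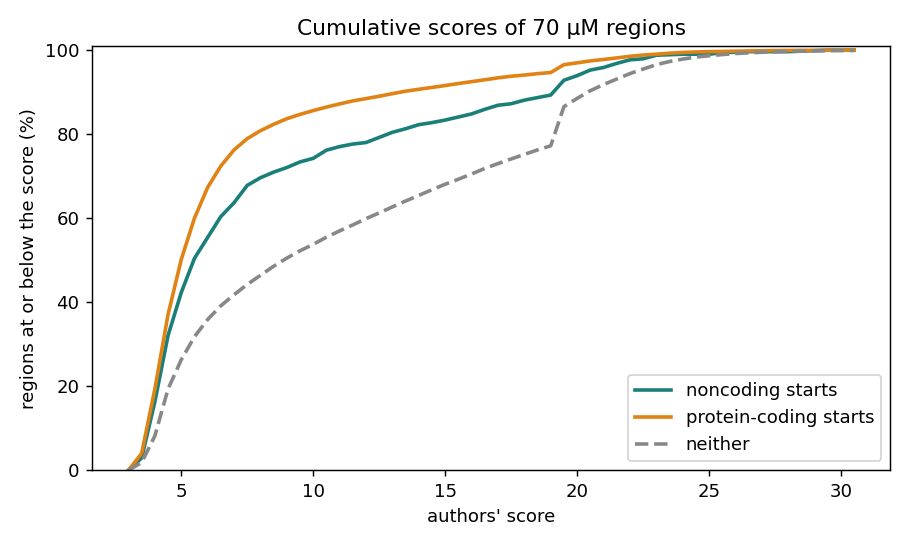
Cumulative share of 70 µM regions (percent) against the authors' score for regions at noncoding starts (green), protein-coding starts (orange) and neither (dashed). The green curve runs between the others up to a score of 27.5, and all 3 show a step at the commonest score of 19.007.

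Low-scoring regions lay more often just downstream of a start than high-scoring ones. Of 611 regions with a score under 10 in the authors' deposited table, 191 (31.3%, exact 95% interval 27.6 to 35.1) had their midpoint in the first 500 bp downstream of the nearest noncoding start, against 44 of 212 (20.8%, 15.5 to 26.8) with a score of 10 or more. In the first 500 bp upstream the shares were 21.8% of the low-scoring regions and 21.7% of the high-scoring ones. Another 70 µM region lay within 1000 bp for 42.4% of the low-scoring regions (38.4 to 46.4) and 14.6% of the high-scoring ones (10.2 to 20.1). At least 8 CpG sites around the midpoint were found in 19.5% of the low-scoring regions (16.4 to 22.8) and 4.25% of the high-scoring ones (1.96 to 7.91). High-scoring regions made up 12.2% of the 98 regions centred 200 to 400 bp downstream, the smallest share of any 200-bp step, and 35.4% of those centred 1000 to 800 bp upstream, the largest.

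**Figure D4:**
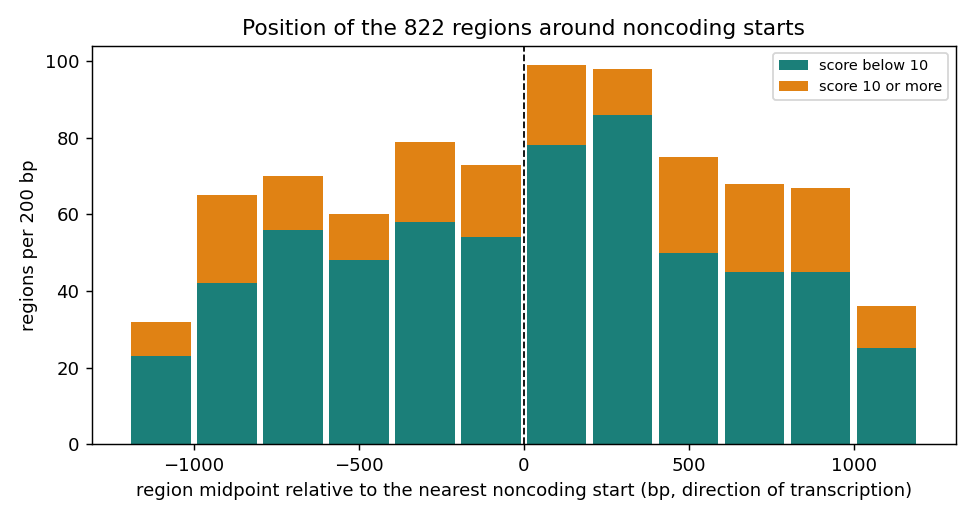
Number of regions, all but 1 of the 823, in 200-bp steps of the distance of their midpoint from the nearest noncoding start, in the direction of transcription, split by score. The 0 to 200 and 200 to 400 bp steps downstream hold the most, 99 and 98 regions; the outermost steps can hold only regions whose edge reaches the 1000-bp window, and a 511-bp region at Gm20732, centred 1225 bp downstream, is not drawn.

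The regions were spread broadly around the start, which the 1000-bp window sets in part. Of the 823 regions, 444 (53.9%, exact 95% interval 50.5 to 57.4) were centred downstream of the nearest noncoding start and 379 upstream. A start itself was covered by 91 regions (11.1%, 8.996 to 13.4). The 4 regions nearest the inner edge of the window, at Gm42435, Chrna1os, Gm31718 and 2410080I02Rik, lay 998 to 999 bp from a start with scores of 10.7, 7.30, 7.46 and 3.51 in the authors' deposited table. Just outside, at 1002 bp, were regions at A330009N23Rik, Gm45866 and Gm7616 with scores of 8.71, 8.05 and 13.2 in the authors' deposited table.

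Per length of sequence, the windows of noncoding starts were denser in 70 µM regions than the genome away from starts. Noncoding windows clear of coding ones covered 19.2 Mb and held 778 midpoints, which is 40.5 per Mb (exact 95% Poisson interval 37.7 to 43.4). The density was 128.1 per Mb in coding windows and 12.7 per Mb (12.6 to 12.9) in the rest of the sequence. The ratio of noncoding windows to the rest was 3.18 for all regions, 4.37 for those scoring under 10 and 1.77 for those scoring 10 or more in the authors' deposited table. The intervals cover counting over regions only and do not measure a difference between cultures.

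Coding genes were near many of the regions, beyond the 1000 bp that the rule sets. The midpoint lay outside every protein-coding gene body for 565 regions (68.7%, exact 95% interval 65.4 to 71.8), in a coding intron for 197 and in a coding exon for 61. Of the 258 inside a coding gene, 215 belonged to a noncoding gene on the opposite strand and 35 to one on the same strand. For the other 8, the coding or the noncoding genes there lay on both strands. The nearest coding start was 1000 to 5000 bp away for 253 regions, and in 70.4% of these that coding gene had a 70 µM region at its own start (exact 95% interval 64.3 to 75.9). The share was 57.9% at 5000 to 20000 bp, 59.0% at 20000 to 100000 bp and 41.0% beyond that (31.3 to 51.3), beside 39.2% of all coding genes. Over all 823 regions it was 60.02% (56.6 to 63.4), against 59.6% for regions at neither kind of start. ChIP does not assign acetylation to a strand, so antisense and host gene cannot be told apart at such a place.

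Host genes of snoRNAs, whose introns are processed into the guide RNAs that direct ribosomal RNA modification, carried regions more often than noncoding genes in general. Of 17 such genes, 9 had a noncoding-start region (52.9%, exact 95% interval 27.8 to 77.0, beside 7.04% of all noncoding genes) and 6 more had a 70 µM region in a window shared with a coding start. These genes had a median of 5 starts and 63 CpG sites in the 1 kb around the first, against 1 start and 13 sites over all noncoding genes; the part of these features was not tested. Snhg1, whose transcript hosts several C/D box snoRNAs, had 3 regions with scores of 4.81, 4.88 and 5.27 in the authors' deposited table, on chromosome 19 between 8724599 and 8725756. At Snhg12 the authors' deposited table gave 16.0, 5.995 and 6.32. Of the 188 32-base words of the region scoring 16.0 in the authors' deposited table, 86 occur elsewhere in the genome. The other regions each covered an internal start, and the one on chromosome 4 at 132308773 to 132309067 held 18 CpG sites. Snhg8 (3.67, 4.23 and 7.34) and Snhg17 (4.70, 4.88 and 5.63) had 3 regions each in the authors' deposited table. Snhg6 had 1 region (7.66), as did Snhg15 (4.47), Snhg5 (4.36), Snhg20 (3.61) and Dancr (3.50), as scored in the authors' deposited table. At Snhg15 67 of 167 such words, and at Dancr 27 of 266, occur elsewhere in the genome. Gas5, whose RNA binds the glucocorticoid receptor in human cells, was among those with a region in a shared window only, with Snhg3, Snhg9, Snhg10, Snhg18 and Zfas1. No 70 µM region was listed at Snhg14 or Epb41l4aos.

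Among RNAs of nuclear bodies and other regulatory RNAs, Malat1, Neat1, Lncpint and 1810026B05Rik carried 3 or more regions each. In this list 6 of 10 genes had a noncoding-start region (60.0%, exact 95% interval 26.2 to 87.8, beside 7.04% of all noncoding genes). The list had a median of 7 starts and 39 CpG sites a gene, against 1 and 13 over all noncoding genes. Malat1, an abundant RNA of nuclear speckles, had 5 regions on chromosome 19 with scores of 3.77, 4.25, 4.49, 4.89 and 5.27 in the authors' deposited table. One of them covered an internal start, and none covered the 5′ end of the gene at 5802672: those nearest lay upstream, at 5803079 to 5803257 (11 CpG sites) and 5803460 to 5803625 (17 CpG sites), and inside the gene, at 5801903 to 5802087. Of the 154 32-base words of the region at 5801903, 90 occur elsewhere in the genome, as do 41 of 418 in the region over the internal start. Neat1, the scaffold of paraspeckles, had 3 regions scoring 4.95, 5.05 and 6.83 in the authors' deposited table, of which the widest, 503 bp at 5844959 to 5845461 on chromosome 19, covered an internal start and ended short of the 5′ end of the gene at 5845478. Those scoring 5.05 and 6.83 in the authors' deposited table also lay at a start of Frmd8os, on the other strand, and the one at 6.83 lay inside Frmd8os. Lncpint, a p53-induced RNA, had 6 regions, the most of any gene, with scores from 3.58 to 8.44 in the authors' deposited table. One of them, 1197 bp wide at 31087483 to 31088679 on chromosome 6, was the widest of all 823. It covered an internal start and, with the region at 31086507 to 31086643, lay far from the 5′ end of the gene at 31220488. The RefSeq table gives 2900097C17Rik as Norad, an RNA that binds Pumilio proteins. It had regions scoring 6.24 and 6.97 in the authors' deposited table, and all 169 32-base words of the one at 6.24 occur elsewhere in the genome. Likewise 1810026B05Rik is Chaserr, which lies upstream of the chromatin remodeller gene Chd2 and restrains it, and had 3 regions (3.61, 3.68 and 6.09 in the authors' deposited table). Pvt1, a neighbour of Myc, had 1 region scoring 4.81 in the authors' deposited table, 51095 bp from the Myc start. Firre, Kcnq1ot1 and Miat had none. Cyrano is not among the 10, since it was counted under its clone name 1700020I14Rik in the neuronal list only, and it had none either.

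**Figure D5:**
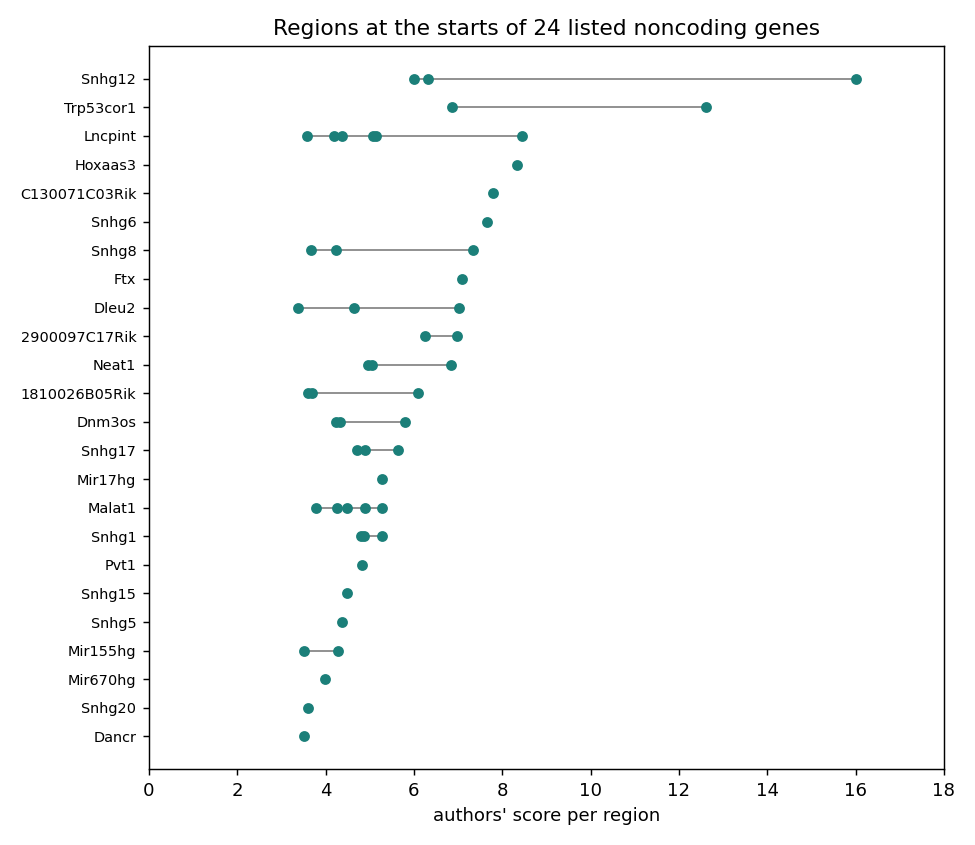
The authors' score of each region at the 24 listed genes that carry one, 1 row per gene, points for regions and a line from the lowest to the highest. All but 2 of the points lie below 10; the exceptions are at Snhg12 (16.0) and Trp53cor1 (12.6).

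Genes linked to p53 and growth showed 6 of 10 with a noncoding-start region (60.0%, 26.2 to 87.8, beside 7.04% of all noncoding genes) and 3 more with one in a shared window only, which were Crnde, Gas5 and Tug1. Lncpint, Pvt1, Snhg1 and 2900097C17Rik, given above, are 4 of the 6. Trp53cor1, or lincRNA-p21, a p53 target next to the cell cycle inhibitor gene Cdkn1a, had 2 regions on chromosome 17. The one at 29072353 to 29072553 scored 12.6 and the one at 29078618 to 29078817 scored 6.86 in the authors' deposited table, and they lay 18523 and 12259 bp from the Cdkn1a start. The first lay inside the gene near an internal start, and the second near the 5′ end of the gene at 29079179. Dleu2, which hosts Mir16-1, had 3 regions scoring 3.38, 4.64 and 7.01 in the authors' deposited table, of which the one at 4.64 covered an internal start and held 19 CpG sites. Meg3, an imprinted growth-suppressing RNA, had none. This list had a median of 10.5 starts and 64 CpG sites a gene.

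In the list of microRNA host genes, 7 of 18 genes carried a region (38.9%, exact 95% interval 17.3 to 64.3, beside 7.04% of all noncoding genes). The 18 include Mirt1 and Mirt2, which are not microRNA hosts and had no 70 µM region at a start. The median of the list was 5.5 starts and 24 CpG sites a gene. Mir17hg, the host of the growth-promoting miR-17-92 cluster, had 1 region over its start (chromosome 14, 115042879 to 115043070, score 5.28 in the authors' deposited table). Dnm3os, which hosts Mir199a-2 and Mir214 of mesenchymal development, had 3 regions scoring 4.23, 4.33 and 5.79 in the authors' deposited table. Mir155hg had 2 (3.51 and 4.28), and the one at 3.51 in the authors' deposited table was 81.3% G and C with 21 CpG sites. C130071C03Rik, host of the neural Mir9-2 next to Mef2c, had 1 region over an internal start (7.78 in the authors' deposited table). The remaining hosts on the list with a region were Dleu2, Ftx and Mir670hg, and Mir22hg had one in a shared window only. Carmn, H19 and Mir124-2hg were among the 10 genes of the list with no 70 µM region at a start.

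The same count by annotation, chosen after the values of the list were seen, took every noncoding gene with a RefSeq microRNA hairpin inside it on the same strand. Of 72 such genes 16 carried a noncoding-start region (22.2%, exact 95% interval 13.3 to 33.6), against 6.94% of 10078 others (6.45 to 7.45). Among genes with 1 start it was 5 of 30 (16.7%, 5.64 to 34.7), against 5.71% of others, and with 2 or more starts 11 of 42 (26.2%, 13.9 to 42.0), against 10.6%. Besides those named, they included 6720427I07Rik, host of the Mirlet7a-1, Mirlet7d and Mirlet7f-1 hairpins (score 4.80), Lncppara with Mirlet7b and Mirlet7c-2 (4.27), A330023F24Rik with Mir29b-2 and Mir29c (5.51) and Gm3764 with Mir9-1 (12.01), all as scored in the authors' deposited table. AL805899.1, host of Mir31, and E130102H24Rik, host of Mir101a, had 2 regions each.

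Imprinted, homeobox and neuronal RNAs carried such a region in shares whose intervals all hold the 7.04% of all noncoding genes. None of 11 imprinted noncoding genes did (0 of 11, which allows a share of up to 28.5% by the exact 95% interval), Airn, H19 and Igf2os among them, and none had a 70 µM region in a shared window. These 11 genes had a median of 6 starts and 34 CpG sites a gene. Of 28 homeobox and developmental genes 1 did (3.57%, 0.0904 to 18.3), beside 3 with a region in a shared window only, which were Fendrr, Hoxd3os1 and Zeb2os. The one was Hoxaas3, an antisense RNA of the HoxA cluster, with a region scoring 8.33 in the authors' deposited table inside Hoxa3 (chromosome 6, 52176004 to 52176276). 5033428I22Rik, Dlx1as and Dlx6os1 were among the 24 with none. Only 8 of these 28 genes were clear of coding windows, against 7741 of all 10150, so the rule itself could take fewer regions there. With shared windows counted, 4 of the 28 had a 70 µM region, beside 14.6% of all noncoding genes. Of 13 neuronal RNAs only C130071C03Rik had one (7.69%, 0.195 to 36.0), and 1700020I14Rik, which the RefSeq table lists as Cyrano, Dlx6os1 and Meg3 had none. Ftx, a long RNA of the X-inactivation centre, had a region over an internal start (score 7.08 in the authors' deposited table), while Jpx, Tsix and Xist had none. In the mesenchymal list 1 of 9 genes, Dnm3os, had one, Fendrr had one in a shared window, and 5033428I22Rik, Carmn and Foxd2os had none. The lists share genes: counted once, 24 of 86 had a noncoding-start region (27.9%, 18.8 to 38.6), and the intervals of the small lists are wide.

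The highest scores belonged mostly to little-studied genes. The region scoring 29.3 in the authors' deposited table, at Gm49484 (chromosome 15, 99464141 to 99464340), led the list, followed by 9530082P21Rik (28.7), whose region lies inside Kremen2 on the other strand, Gm35507 (28.3), Gm43122 (26.2) and Irx3os (25.8). Irx3os runs from the other strand next to Irx3, a homeobox gene, and its region lay 1210 bp from the Irx3 start. Next in the authors' deposited table came Gm17140 within the thyroglobulin gene Tg (25.4), Gm45353 (25.3), Dhx58os (25.1), Gm7607 (23.9) and 1700020N18Rik (23.2). None of these 10 regions had a 32-base word that occurs elsewhere, and none held more than 6 CpG sites. After Lncpint, the widest regions were at Gm17501 (732 bp, 44 CpG sites, chromosome 3, 145652871 to 145653602), which lies 3255 bp from the start of the matricellular gene Ccn1, and at Gm47796 (698 bp), AC137853.2 (530 bp, the region itself inside the phosphatase gene Dusp5) and Gm30873 inside Arnt2 (521 bp).

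Opposite-strand transcripts, named after the coding gene they face, carried regions in 29 of 287 cases (10.1%, exact 95% interval 6.87 to 14.2, which holds the 7.04% of all noncoding genes). Junos, opposite the AP-1 gene Jun, had 4 regions scoring 3.25, 3.69, 6.18 and 7.15 in the authors' deposited table. Only the one at 6.18, on chromosome 4 at 95050727 to 95050918, lay near the 5′ end of the gene at 95051534. The other regions lay at internal starts, between 95075609 and 95099287. Zmiz1os1, opposite the coactivator gene Zmiz1, also had 4, scoring 4.08, 4.39, 4.86 and 11.3 in the authors' deposited table, and the one at 4.39 held 34 CpG sites over 447 bp. The lincRNA gene D630033O11Rik, with 5 regions scoring 3.75 to 9.72 in the authors' deposited table, follows Lncpint in number with Malat1, and 4 genes had 4 regions, Junos and Zmiz1os1 among them. Some others were picked for their partner after the values were seen. Sardhos faces Sardh, the enzyme that oxidises sarcosine in the breakdown of choline and betaine, and had a region scoring 21.4 in the authors' deposited table. Acss2os faces Acss2, which makes acetyl-CoA from acetate, and Kdm6bos faces the histone demethylase gene Kdm6b; both had the commonest score of 19.007 in the authors' deposited table.

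Sequence that occurs more than once on the assembled chromosomes touched a minority of the regions. Copies on unplaced sequences, or missing from the assembly, were not counted. Of the 823, 677 (82.3%, exact 95% interval 79.5 to 84.8) held no 32-base word found elsewhere on chromosomes 1 to 19, X and Y, 126 held some and 20 held nothing else. These 20 include the one at 2900097C17Rik above and 2 at Muc19. The sources used here do not say how reads that fit several places were treated.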

How the data were processed

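H3K9ac ChIP-seq of HT22 cells was analysed from 1 deposited list for the whole series. The build was mm10 and the tools Bowtie 1.0.0, MACS2 and CASAVA 1.8, per the submitters' processing notes. Per the series' design text, peaks were called against input with default settings and differences between the 2 choline levels with the bdgdiff function. Each region of the deposited list has a score from the authors' comparison, which the list leaves unnamed (MACS2 bdgdiff writes a log10 likelihood ratio), and per the file headers it is unique to 1 condition. Scaling between the libraries is unknown, so unequal depth or enrichment could change how many regions each condition has. Total reads are unknown, so no precision comes from depth.

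Regions were set against GENCODE M21 and the RefSeq GRCm38.p6 sequence (the mm10 assembly), unplaced sequences left out, with an overlap of at least 1 bp and coordinates counted from 1. Shares have exact (Clopper-Pearson) and medians exact order-statistic 95% intervals; both cover counting only. Tools were Python 3.11.15, pandas 2.3.3, numpy 2.4.6, scipy 1.17.1, pysam 0.24.0 and samtools 1.23.1. Overlap and interval code was tested on simulated data. Genes were named by a rule: up to 8 with and 3 without a region in each of 9 lists, the 10 highest-scoring and 5 widest regions, and the 5 genes with the most regions; genes with a region in a shared window only and a ninth snoRNA host are named besides, and others are marked where named. The regions and lists were chosen with earlier results of these data known. Listed names that the annotation did not hold, or whose gene was of another type, were not counted. The sequence of 1 region is not reported here. Alternatives were other windows, starts, overlap rules, scores, chromosomes and coding distances and, added after the data were seen, regions of unique sequence only.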

Additional observations from a re-analysis of the deposited data

How the results depend on the processing

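No paired analysis was possible because the deposited list holds no value per library. Across 8 alternative settings and 1 added after the data were seen, the number of regions stayed within 1.5 times 823 except with only scores at or above the median of all 70 µM regions, which left 319. That same limit on the score gave 3.12% of genes with a region, a median score of 13.1 in the authors' deposited table, which the limit itself raises, 63.0% outside coding genes and 50.3% median G and C. In the settings with other windows or starts, the coding windows that exclude a region changed in the same way. Windows of 500 bp gave 5.51% of genes, 61.6% outside coding genes and 51.7% G and C. Windows of 2500 bp gave 9.44% of genes, a median width of 170 bp, a median score of 6.15 in the authors' deposited table, 73.0% outside coding genes and 50.3% G and C. Taking the 5′-most start of each gene, so that internal coding starts no longer excluded a region, gave 7.90% of genes, 50.8% outside coding genes and 51.8% G and C. With no coding start within 5000 bp, 4.82% of genes had a region and 81.3% lay outside coding genes. With regions of unique sequence only, 5.88% of genes had one. Among listed genes, 24 had a region with windows of 500 bp and 29 with windows of 2500 bp, against 24 in the report. Using the midpoint, leaving out the 2 commonest scores or using autosomes only kept the 6 values within their intervals or within 1.5 times the count.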

Other observations

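Regions assigned to 5 µM choline were few at noncoding starts. The rule took 1.81% of the 70 µM regions (exact 95% interval 1.69 to 1.94), against 8 of the 360 regions at 5 µM (2.22%, 0.964 to 4.33), so 103 regions at 70 µM stood for each at 5 µM, beside 126 over the whole list. The 8 regions at 5 µM lay at 7 genes, with a median width of 135 bp. B230311B06Rik and Tspan32os had scores of 19.2 and 18.5 in the authors' deposited table, and the others, at Runx2os2, Gm26652, Gm26812 (2 regions), C330018A13Rik and Gm20744, had 3.78 to 7.02. C330018A13Rik and B230311B06Rik also had 70 µM regions at a start, 1 and 2 of them.

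The share of noncoding genes with one of the 823 regions varied by chromosome. It was 13.6% of 368 genes on chromosome 15 (exact 95% interval 10.3 to 17.5), 12.4% of 428 on chromosome 17 (9.42 to 15.9) and 11.4% of 457 on chromosome 4 (8.62 to 14.7), against 4.69% of 448 on chromosome 14 (2.92 to 7.08). Chromosome 15 held 8.44% of all 70 µM regions and 6.93% of the 823. The same shares were 5.61% and 7.90% on chromosome 17, 7.99% and 7.78% on chromosome 4, and 1.81% and 2.79% on chromosome 14. None of 552 noncoding genes on chromosome Y had one, and 9 of 177 on chromosome X did.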
